A study of Homo sapiens with 36 samples.

Results

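The genes described here are AHR, which encodes the aryl hydrocarbon receptor, and the genes that act with it or are known to respond to it, 9 of the 60675 genes in the deposited table. They were chosen by name from their known roles, with earlier results of these data known, and all 9 were found in the table by symbol: AHR, its DNA-binding partner ARNT, its repressor AHRR, and the targets CYP1A1, CYP1A2, CYP1B1, TIPARP, ALDH3A1 and ALDH1A3. Their RNA was read in 36 libraries from 2 human cell lines, SW1783 and HT29, in 12 groups of 3 replicates. SW1783 is an astrocytoma line that was grown in L-15 medium without CO2, and HT29 is a colorectal adenocarcinoma line that was grown in DMEM with CO2, so that the culture conditions and the cell line cannot be told apart. In each line, batch A consisted of 3 vehicle libraries and of 3 with wortmannin at 10 µM, which blocks PI3K and served as positive control. Batch B consisted of 3 libraries labelled as its own vehicle and of 3 groups treated with Aconitum carmichaeli Debeaux (ACD), a monkshood whose processed root is a herbal medicine, as water extract at a high dose of 500 µg/mL, a medium dose of 100 µg/mL and a low dose of 20 µg/mL. All groups were collected at 24 h, and the labels give the vehicle as 0.1% DMSO. The extract stock was dissolved in buffered saline with the same share of DMSO that the study's methods give for the vehicle. The final DMSO content of the extract groups is not in the labels. No genotype was altered. Each tissue was represented by a single line, and no source says that the replicates were grown on separate days, so that the p-values measure the spread between these samples, which may be partly technical.

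AHR is a transcription factor that waits in the cytoplasm with chaperones until a small molecule, such as a dioxin, a polycyclic hydrocarbon or a plant or tryptophan derivative, binds to it. It then enters the nucleus, pairs with ARNT and binds a short DNA element, the xenobiotic response element, near genes of drug metabolism. AHRR competes with AHR for ARNT and for DNA, and TIPARP, an ADP-ribosyltransferase, dampens the receptor, and both are themselves targets of AHR. In the gut the receptor meets ligands from food and bacteria, and CYP1A1 is its most sensitive readout.

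The core of the xenobiotic response element is GCGTG, which reads CACGC on the opposite strand. The 250 bases before the annotated start were available for 7 of the 9 genes (RefSeq, build GRCh38.p14), and were searched for both forms. CYP1B1 and ALDH3A1 were not among them. Of the 35116 upstream windows of this length in the same table, 32.2% held the core at least 1 time and 10.2% held it 2 or more times, so that a match is common and only describes these letters. CYP1A1 (chr15:74725529-74725778, minus strand) held it 1 time, 57 bases before the start. TIPARP (chr3:156674340-156674589, plus strand) held it 2 times, while its 2 other annotated starts had no match. ALDH1A3 (chr15:100879581-100879830, plus strand) held it 2 times. AHRR (chr5:321464-321713, plus strand) held it 1 time here and 2 times at another start. AHR, ARNT and CYP1A2 had no match in their windows. The sequences are shown for 3 of the targets that rose in HT29 and for the repressor that fell in SW1783, 5′ to 3′ in the direction of the gene, with the core in capitals.
CYP1A1: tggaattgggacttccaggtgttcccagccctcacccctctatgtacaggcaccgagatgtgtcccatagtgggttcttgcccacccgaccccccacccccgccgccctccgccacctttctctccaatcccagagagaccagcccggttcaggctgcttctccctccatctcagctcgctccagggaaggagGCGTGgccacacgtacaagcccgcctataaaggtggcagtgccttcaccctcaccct
TIPARP: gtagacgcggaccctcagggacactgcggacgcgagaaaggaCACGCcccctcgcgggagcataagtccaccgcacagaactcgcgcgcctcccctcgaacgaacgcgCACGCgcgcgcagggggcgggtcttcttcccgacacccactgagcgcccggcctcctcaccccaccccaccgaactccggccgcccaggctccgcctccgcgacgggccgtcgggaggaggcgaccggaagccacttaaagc
ALDH1A3: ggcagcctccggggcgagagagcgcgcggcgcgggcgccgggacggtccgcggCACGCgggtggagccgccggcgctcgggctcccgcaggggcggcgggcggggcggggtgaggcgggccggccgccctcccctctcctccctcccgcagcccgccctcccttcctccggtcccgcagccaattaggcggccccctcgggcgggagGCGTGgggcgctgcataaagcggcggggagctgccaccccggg
AHRR: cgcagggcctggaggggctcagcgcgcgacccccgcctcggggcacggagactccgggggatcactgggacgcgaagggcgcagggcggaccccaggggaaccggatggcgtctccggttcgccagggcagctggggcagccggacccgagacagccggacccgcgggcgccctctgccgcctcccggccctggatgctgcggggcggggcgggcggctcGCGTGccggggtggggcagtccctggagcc

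Total counts per library ranged from 15941255 to 33866644, and a count of 0 allowed up to 3 counts, or 0.089 to 0.188 in CPM, the count divided by the library total and multiplied by 1000000. This limit covers counting error only, and the levels below were in addition scaled between libraries by TMM. The epithelial markers EPCAM, KRT20, CDH1 and VIL1 lay between 148 and 633 CPM in the 18 HT29 libraries and at 0.202 CPM or below in SW1783. In SW1783 the mesenchymal marker VIM lay at 3990 CPM or above and COL1A2 at 534 CPM or above, but GFAP and S100B, which define astrocytes, stayed at 0.255 CPM or below, so that the astrocytic origin of the line was not visible in these markers. The share of counts from the 2 mitochondrial ribosomal RNAs differed with ACD, from 0.91% to 1.22% in the vehicle libraries of batch B to between 11.27% and 12.52% at the high dose in HT29 and between 7.67% and 8.05% at the medium dose in SW1783. With the mitochondrial genes and the abundant 7SL RNA left out, the number of the 9 genes that passed the test was the same in every comparison. The vehicle libraries of the 2 batches were not independent. Over genes with at least 50 counts in a pair, the mean chi-square per degree of freedom between vehicle A and vehicle B libraries of the same number, which would be near 1 for counting noise alone, was 1.47 to 1.56 in HT29 and 1.55 to 1.68 in SW1783. Between libraries of different number it was 4.34 to 19.83 in HT29 and 2.13 to 3.32 in SW1783, and within a vehicle group 4.1 to 19.4 and 2.14 to 2.42. Each vehicle B library was thus closest to the vehicle A library of its number, and whether they came from the same cultures is not given in the labels. Values against vehicle A are therefore no second, independent measurement of the vehicle. Replicate 2 of the high dose in HT29 was the shallowest library and stood apart from the other two in several genes below.

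The first question was how much of the pathway the vehicle libraries carried, compared as CPM per kilobase of exon. The length is the union of all annotated exons of a gene, which can be longer than the transcript expressed. In vehicle B of HT29, TIPARP with 13.6 and AHR with 13.3 CPM per kb were the highest, and their libraries overlapped. CYP1B1 followed with 7.99, ALDH3A1 with 5.64, ARNT with 4.3 and ALDH1A3 with 3.51 CPM per kb, and the libraries of these did not overlap with their neighbours in the order. AHRR had 0.468 and CYP1A1 had 0.0854 CPM per kb, and CYP1A2 had no count. In vehicle B of SW1783 the order was ALDH1A3 with 121, CYP1B1 with 26.6, AHR with 13.3, TIPARP with 8.86, ARNT with 7.95, AHRR with 5.25, CYP1A1 with 0.205 and ALDH3A1 with 0.108 CPM per kb, without overlap between neighbours, and CYP1A2 again had no count.

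AHR (ENSG00000106546, GRCh38 chromosome 7, 16916359 to 17346152, plus strand) measured 100.8, 106.0 and 115.1 CPM in vehicle B of HT29 and 106.5, 104.9 and 109.1 CPM in that of SW1783. Its log2 difference, HT29 against SW1783, was -0.02 ± 0.06 (SE, 95% interval -0.14 to 0.10, DESeq2 adjusted p = 0.815). In this comparison 7 of the 9 genes passed the test, which required an adjusted p under 0.05 and a change of more than 1.5-fold, and 49.4% of all genes tested did so. In vehicle A 5 of the 9 passed, again beside 49.4% of all genes. A difference between the lines was thus common over all genes and not particular to these 9.

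AHRR (ENSG00000063438, chromosome 5, 321714 to 438291, plus strand) was far higher in SW1783, with 49.7, 48.3 and 51.3 CPM against 3.34, 5.351 and 4.608 CPM in HT29, a log2 difference of -3.47 ± 0.11 for HT29 (adjusted p = 6.4e-218). ARNT (ENSG00000143437, chromosome 1, 150809713 to 150876708, minus strand) was also lower in HT29, by -0.91 ± 0.08 (adjusted p = 1.79e-27). The ratio of AHR to AHRR in CPM per kb was 28.4 in vehicle B of HT29 and 2.53 in that of SW1783. AHRR lies within a readthrough transcript with its neighbour PDCD6 on the same strand, and how reads were divided between them was not stated.

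Among the targets, the lines differed in both directions. ALDH1A3 (ENSG00000184254, chromosome 15, 100877714 to 100916626, plus strand), which makes retinoic acid from retinal, was higher in SW1783, and its log2 difference was -5.13 ± 0.07 with an adjusted p below what the software prints. ALDH3A1 (ENSG00000108602, chromosome 17, 19737984 to 19748943, minus strand), which oxidises aromatic and lipid aldehydes, was higher in HT29 by 5.66 ± 0.28 (adjusted p = 1.34e-86). CYP1B1 (ENSG00000138061, chromosome 2, 38066973 to 38109902, minus strand), a P450 enzyme that oxidises estrogens and polycyclic hydrocarbons, was lower in HT29 by -1.76 ± 0.11 (adjusted p = 2e-52). TIPARP (ENSG00000163659, chromosome 3, 156673235 to 156706770, plus strand) differed by 0.59 ± 0.07 (adjusted p = 1.47e-15), just over the fold threshold, and by 0.52 ± 0.07 in vehicle A, below it. CYP1A1 differed by -1.19 ± 0.44 (adjusted p = 0.0119) in vehicle B but by -0.23 ± 0.45 (adjusted p = 0.677) in vehicle A, on 2 to 22 counts per library or fewer than 1 CPM. Its difference in vehicle B missed the threshold with edgeR (adjusted p = 0.0654) and without replicate 1 of the HT29 vehicle (adjusted p = 0.0774).

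The second question was what the extract did to these genes in HT29. At the high dose 5 of the 9 genes rose and none fell: CYP1A1, CYP1B1, TIPARP, ALDH3A1 and ALDH1A3, beside 3.1% of all genes tested, counted in either direction. At the medium dose the same 5 passed, beside 0.793% of all genes, and at the low dose 4 passed, without ALDH3A1, beside 0.288% of all genes. The median log2 fold change of the 8 genes with an adjusted p was 1.67 at the high dose, 1.36 at the medium dose and 0.55 at the low dose, against 0.011, -0.006 and -0.001 over all genes. The 3 doses share their vehicle libraries.

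CYP1A1 (ENSG00000140465, chromosome 15, 74719542 to 74725536, minus strand), which oxidises polycyclic hydrocarbons, showed by far the largest change. It measured 0.111, 0.395 and 0.354 CPM in vehicle B of HT29, on 2, 13 and 8 counts. It measured 5.888, 2.206 and 3.367 CPM at the low dose, 85.4, 91.7 and 96.2 CPM at the medium dose and 92.7, 102.0 and 102.5 CPM at the high dose. Every treated library lay above every vehicle library of either batch, and the low dose did not overlap with the others. It thus rose on the log2 scale by 3.64 ± 0.40 at the low dose (12.4-fold, adjusted p = 2.95e-16), 8.21 ± 0.39 at the medium dose (296-fold, adjusted p = 5.4e-94) and 8.34 ± 0.39 at the high dose (324-fold, adjusted p = 2.05e-97). The fold rests on the few counts of the vehicle: without replicate 1 of the vehicle the log2 value at the high dose was 8.04, and without replicate 2 it was 8.67.

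CYP1B1 started from a level that was readily measured, at 44.5, 47.7 and 52.2 CPM in vehicle B. It measured 156.4, 102.2 and 107.2 CPM at the low dose, 374.4, 406.5 and 391.8 CPM at the medium dose and 350.2, 298.2 and 363.4 CPM at the high dose. Its highest group was therefore the medium dose, without overlap with the high dose, although the 2 groups did not pass the test against each other. From low to high dose it rose by 1.34 ± 0.15 (adjusted p = 9.49e-15), 3.02 ± 0.15 (adjusted p = 1.25e-82) and 2.82 ± 0.15 (adjusted p = 7.35e-72) on the log2 scale. CYP1B1 overlaps RMDN2-AS1 on the same strand, and how reads were divided between them was not stated.

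TIPARP, which feeds back on the receptor, measured 62.0, 64.3 and 69.3 CPM in vehicle B of HT29. It measured 122.3, 97.5 and 108.1 CPM at the low dose, 170.7, 178.4 and 180.4 CPM at the medium dose and 175.1, 191.5 and 191.5 CPM at the high dose. All 9 treated libraries lay above the vehicle, and the medium and high doses overlapped. Its log2 fold change was 0.74 ± 0.09 at the low dose (adjusted p = 1.04e-12), 1.44 ± 0.09 at the medium dose (adjusted p = 5.77e-53) and 1.52 ± 0.09 at the high dose (adjusted p = 1.52e-59).

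The 2 aldehyde dehydrogenases differed in the shape of their response. ALDH3A1 measured 23.2, 21.6 and 20.9 CPM in vehicle B, 26.9, 27.5 and 29.6 CPM at the low dose, 51.9, 53.4 and 54.6 CPM at the medium dose and 74.5, 81.2 and 75.2 CPM at the high dose. ALDH1A3 measured 17.9, 19.0 and 19.3 CPM in vehicle B, 43.7, 33.3 and 37.4 CPM at the low dose, 101.1, 99.7 and 102.1 CPM at the medium dose and 69.5, 78.7 and 74.6 CPM at the high dose. None of these groups overlapped, so that ALDH3A1 was ordered by dose while ALDH1A3 was highest at the medium dose. For ALDH3A1 the log2 fold change was 0.35 ± 0.08 at the low dose, below the fold threshold (adjusted p = 0.00176), 1.29 ± 0.07 at the medium dose (adjusted p = 1.35e-65) and 1.82 ± 0.07 at the high dose (adjusted p = 6.87e-135). That of ALDH1A3 was 1.02 ± 0.11 (adjusted p = 5.31e-18), 2.43 ± 0.10 (adjusted p = 4.78e-116) and 1.99 ± 0.11 (adjusted p = 8.77e-77).

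**Figure D1:**
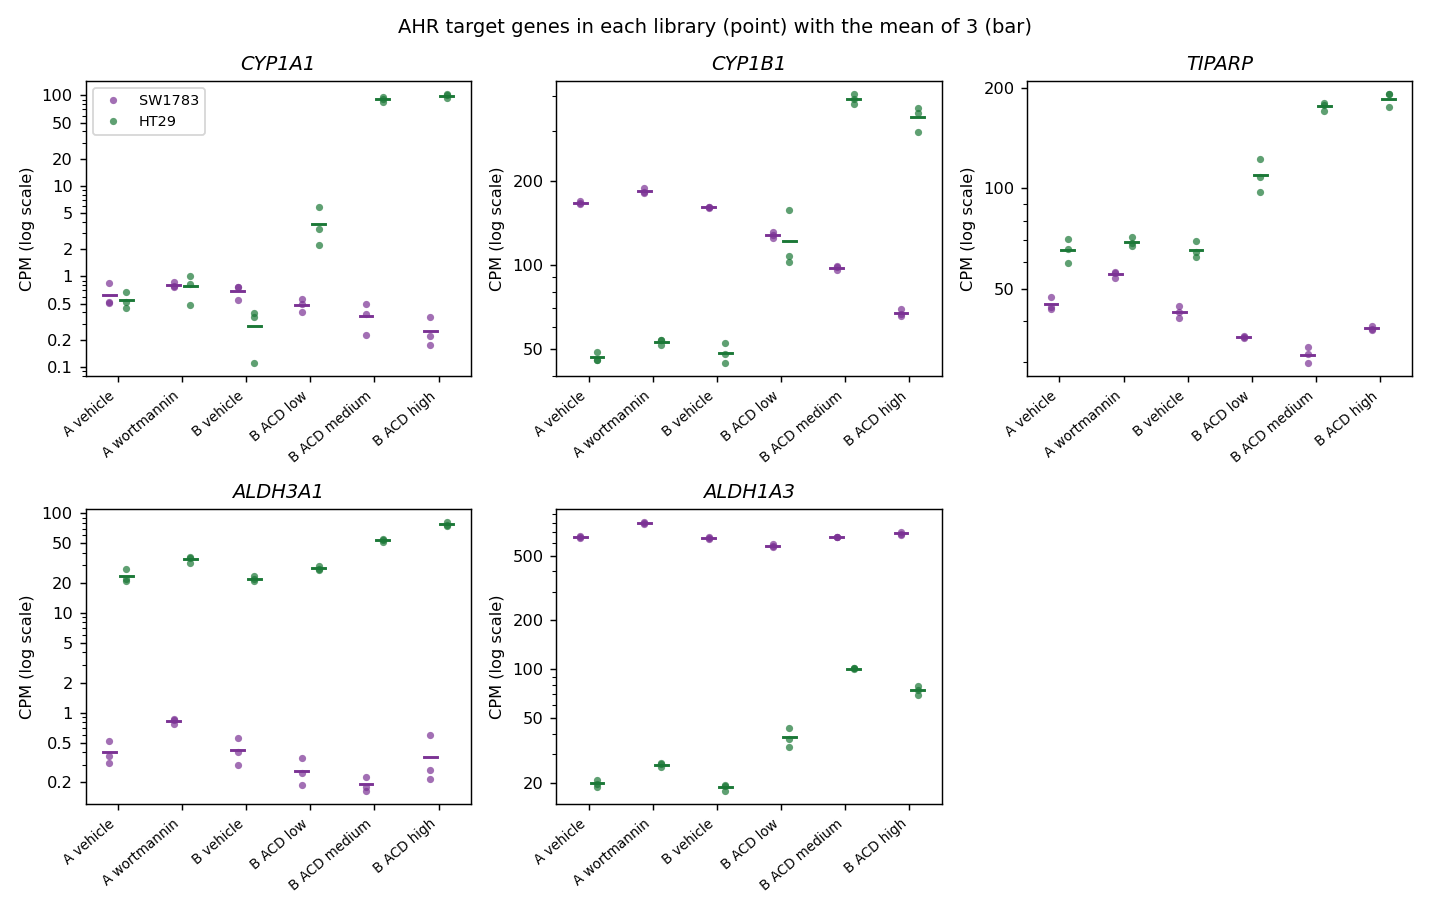
CPM of 5 target genes on a log axis in each library (points, 3 per group) with the group mean (bar), for SW1783 (purple) and HT29 (green) in the 6 groups of batches A and B. In HT29 the medium and high dose libraries of CYP1A1 sit between 85.4 and 102.5 CPM, all above the vehicle libraries, while in SW1783 the CYP1B1 bars step down from 160.3 CPM in vehicle B to 67.11 CPM at the high dose.

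CYP1A2 (ENSG00000140505, chromosome 15, 74748845 to 74756607, plus strand), the neighbour of CYP1A1 and the main caffeine-metabolising enzyme of liver, stayed near the limit of detection. In HT29 the vehicle B libraries had 0 counts each, the low dose 1, 0 and 0 counts, the medium dose 3, 2 and 3 counts and the high dose 4, 2 and 5 counts. The 6 libraries of the medium and high doses were thus the only libraries of batch B with 2 or more counts. Against 3 counts over the vehicle group, the ratio was 2.56 at the medium dose and 3.59 at the high dose. These ratios allow for counting error in the vehicle only and not in the treated groups, so that they are no lower bounds. The DESeq2 log2 fold change was 3.8 ± 1.54 at the medium dose (interval 0.79 to 6.81). At the high dose it was 4.38 ± 1.52 (interval 1.4 to 7.35). DESeq2 gave no adjusted p for CYP1A2, and all 18 SW1783 libraries had 0 counts.

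The receptor and its partners did not pass the test in HT29. AHR measured 110.4, 91.1 and 108.3 CPM at the high dose, overlapping the vehicle, with a log2 fold change of -0.05 ± 0.08 (95% interval -0.21 to 0.12, adjusted p = 0.843). ARNT measured 32.6, 22.9 and 29.1 CPM at the high dose against 26.9, 28.5 and 27.8 CPM in vehicle B (log2 fold change 0.04 ± 0.11, interval -0.18 to 0.26, adjusted p = 0.915). AHRR measured 5.713, 3.319 and 5.807 CPM against 3.34, 5.351 and 4.608 CPM (log2 fold change 0.17 ± 0.22, interval -0.26 to 0.60, adjusted p = 0.752). The intervals at the medium and low doses lay between -0.24 and 0.77 for the 3 genes. In all 3 the lowest of the high dose libraries was replicate 2, and without it the log2 fold changes were 0.03 ± 0.07, 0.15 ± 0.09 and 0.35 ± 0.20, none past the test. Without it the 5 targets still passed, with CYP1A1 at 8.33 ± 0.50 and CYP1B1 at 2.89 ± 0.19.

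**Figure D2:**
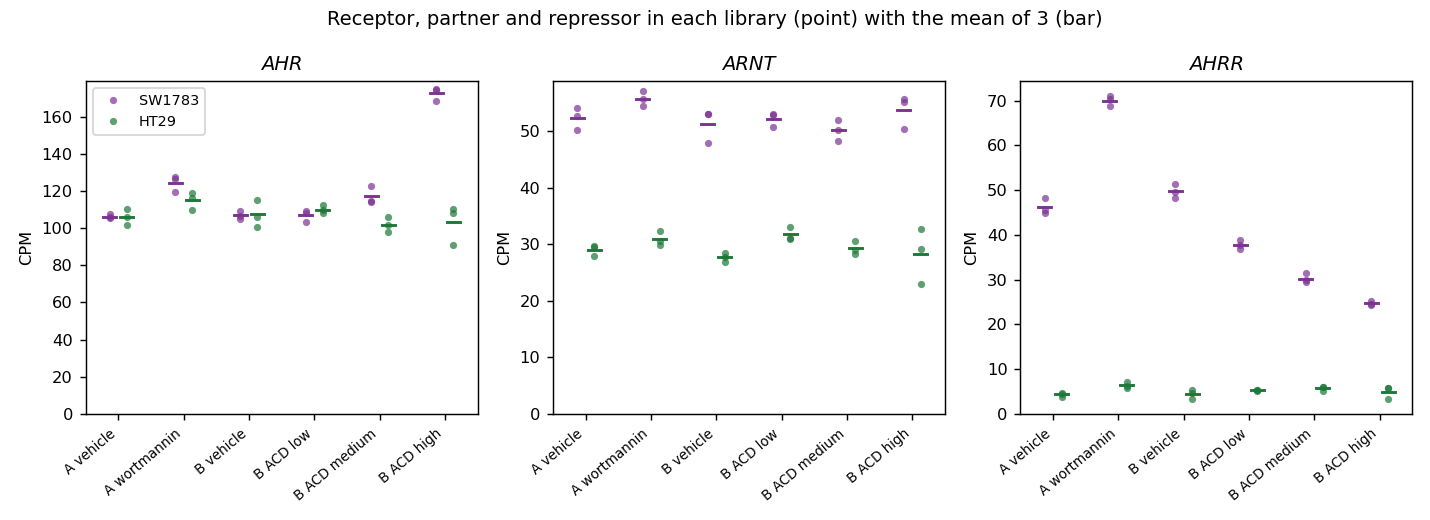
CPM of AHR, ARNT and AHRR on linear axes from 0 in each library (points, 3 per group) with the group mean (bar), for SW1783 (purple) and HT29 (green). AHRR of SW1783 steps down from 49.8 CPM in vehicle B to 24.75 CPM at the high dose, while AHR of SW1783 stands at 172.5 CPM at the high dose against 106.8 CPM.

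The doses of HT29 were also compared with each other. From the low to the medium dose all 5 targets rose, beside 0.156% of all genes tested. The steps on the log2 scale were 4.57 ± 0.26 for CYP1A1, 1.68 ± 0.15 for CYP1B1, 1.41 ± 0.10 for ALDH1A3, 0.94 ± 0.07 for ALDH3A1 and 0.69 ± 0.09 for TIPARP. From the medium to the high dose none of the 9 passed, beside 0.7% of all genes. With the fold threshold kept, edgeR also called 0. Without the fold threshold 2 genes had an adjusted p under 0.05 in DESeq2, which was also the number at an unadjusted p under 0.05. These were ALDH3A1, by 0.53 ± 0.07 (adjusted p = 1.48e-12), and ALDH1A3, by -0.44 ± 0.10 (adjusted p = 0.0011). CYP1A1 differed between these doses by 0.13 ± 0.24 (interval -0.35 to 0.61). Taking the largest rise in mean CPM of each gene as 100%, the low dose had reached 36.5% for TIPARP, 23.6% for ALDH1A3, 21.5% for CYP1B1, 11.1% for ALDH3A1 and 3.58% for CYP1A1. The medium dose had reached 57.1% for ALDH3A1, 92.0% for CYP1A1 and 92.1% for TIPARP, and was itself the largest for CYP1B1 and ALDH1A3.

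At the low dose of HT29, replicate 1 was the highest of the 3 libraries in CYP1A1, CYP1B1, TIPARP and ALDH1A3, and the lowest in ALDH3A1. Without it the CYP1A1 log2 fold change at the low dose was 3.13 in place of 3.64, and the 4 calls at this dose remained. Its total of 28632984 counts was also the highest of the 3.

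In SW1783 the same extract gave another picture. At the high dose 1 of the 9 genes rose, AHR, and 3 fell, AHRR, CYP1A1 and CYP1B1, beside 17.7% of all genes tested. At the medium dose 2 fell, AHRR and CYP1B1, beside 3.81% of all genes. At the low dose none passed, beside 0.103% of all genes. At this dose 4 of the 9 had an adjusted p under 0.05 below the fold threshold, and 4 had an unadjusted p under 0.05. The edgeR test, with the fold threshold kept, called 0. The median log2 fold change of the genes with an adjusted p was -0.18 over 8 genes at the high dose and -0.21 over 6 at the medium dose, against -0.012 and -0.001 over all genes.

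CYP1B1, abundant in this line, fell with dose. It measured 161.1, 160.4 and 159.5 CPM in vehicle B, 125.0, 128.1 and 130.8 CPM at the low dose, 98.1, 98.5 and 95.4 CPM at the medium dose and 69.3, 65.7 and 66.3 CPM at the high dose. No group overlapped with another. The log2 fold change was -0.32 ± 0.04 at the low dose (adjusted p = 9.36e-14), which was below the fold threshold, -0.70 ± 0.04 at the medium dose (adjusted p = 4.34e-67) and -1.23 ± 0.04 at the high dose (adjusted p = 2.97e-189).

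AHRR followed the same order. It measured 49.7, 48.3 and 51.3 CPM in vehicle B, 38.8, 36.8 and 37.7 CPM at the low dose, 31.4, 29.9 and 29.4 CPM at the medium dose and 24.3, 24.6 and 25.3 CPM at the high dose, again without overlap. The log2 fold change was -0.39 ± 0.06 (adjusted p = 2.63e-07), which was below the fold threshold, -0.71 ± 0.07 (adjusted p = 9.77e-25) and -0.98 ± 0.07 (adjusted p = 3.84e-46) from low to high dose. The level of the mesenchymal marker COL1A2 was also lower with ACD in this line. Its mean was 2116 CPM in vehicle B and 1936, 1517 and 559.7 CPM with increasing dose. The other mesenchymal marker, VIM, lay between 3990 and 5190 CPM over the SW1783 libraries of all groups. The part of COL1A2 in the values of CYP1B1 and AHRR was not tested. These values come from bulk RNA, in which fewer cells expressing a gene and less RNA per cell cannot be told apart.

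AHR itself passed only at the high dose, in the upward direction. It measured 106.5, 104.9 and 109.1 CPM in vehicle B, 109.4, 108.2 and 103.2 CPM at the low dose, 114.7, 113.9 and 122.7 CPM at the medium dose and 168.2, 174.2 and 174.9 CPM at the high dose. The log2 fold change was 0.01 ± 0.04 at the low dose (adjusted p = 0.969), 0.15 ± 0.04 at the medium dose (adjusted p = 0.00218, below the fold threshold) and 0.72 ± 0.04 at the high dose (1.64-fold, adjusted p = 1.05e-68). The ratio of AHR to AHRR in CPM per kb was 2.53 in vehicle B and 3.34, 4.55 and 8.2 with increasing dose. In HT29 this ratio lay between 21.1 and 28.4 in the groups of batch B. ARNT did not pass at any dose (0.09 ± 0.06 at the high dose, interval -0.03 to 0.21, adjusted p = 0.25). AHR overlaps 4 other annotated genes on its strand, and how their reads were divided was not stated.

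CYP1A1 was close to the limit of detection in SW1783, with 11, 18 and 15 counts in vehicle B, 12, 10 and 8 at the low dose, 7, 5 and 11 at the medium dose and 4, 4 and 8 at the high dose. The high dose libraries lay below those of the vehicle, with a log2 fold change of -1.44 ± 0.61 (adjusted p = 0.0405). This call did not hold without any single replicate of the vehicle or without replicate 1 or 2 of the high dose, where the adjusted p lay between 0.0547 and 0.168, nor with only these 2 groups in the fit (adjusted p = 0.064). All SW1783 libraries lay far below the HT29 libraries of the medium or high dose, which had 1444 counts or more.

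The other targets of SW1783 did not pass the test. TIPARP measured 44.3, 40.8 and 42.4 CPM in vehicle B, 36.0, 35.4 and 35.8 CPM at the low dose, 29.9, 31.8 and 33.3 CPM at the medium dose and 38.7, 37.7 and 37.5 CPM at the high dose. All 9 treated libraries lay below the vehicle, with log2 fold changes of -0.24 ± 0.07 (adjusted p = 0.01), -0.41 ± 0.07 (adjusted p = 1.81e-08) and -0.14 ± 0.07 (adjusted p = 0.0724). ALDH1A3 lay between 566.2 and 699.6 CPM in all 12 libraries of batch B, with log2 fold changes of -0.15 ± 0.02, 0.03 ± 0.02 and 0.11 ± 0.02 from low to high dose. ALDH3A1 had 3 to 13 counts per library in batch B, and its interval at the high dose, -1.55 to 1.11, included changes in either direction, so that a difference was not detectable at this depth.

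**Figure D3:**
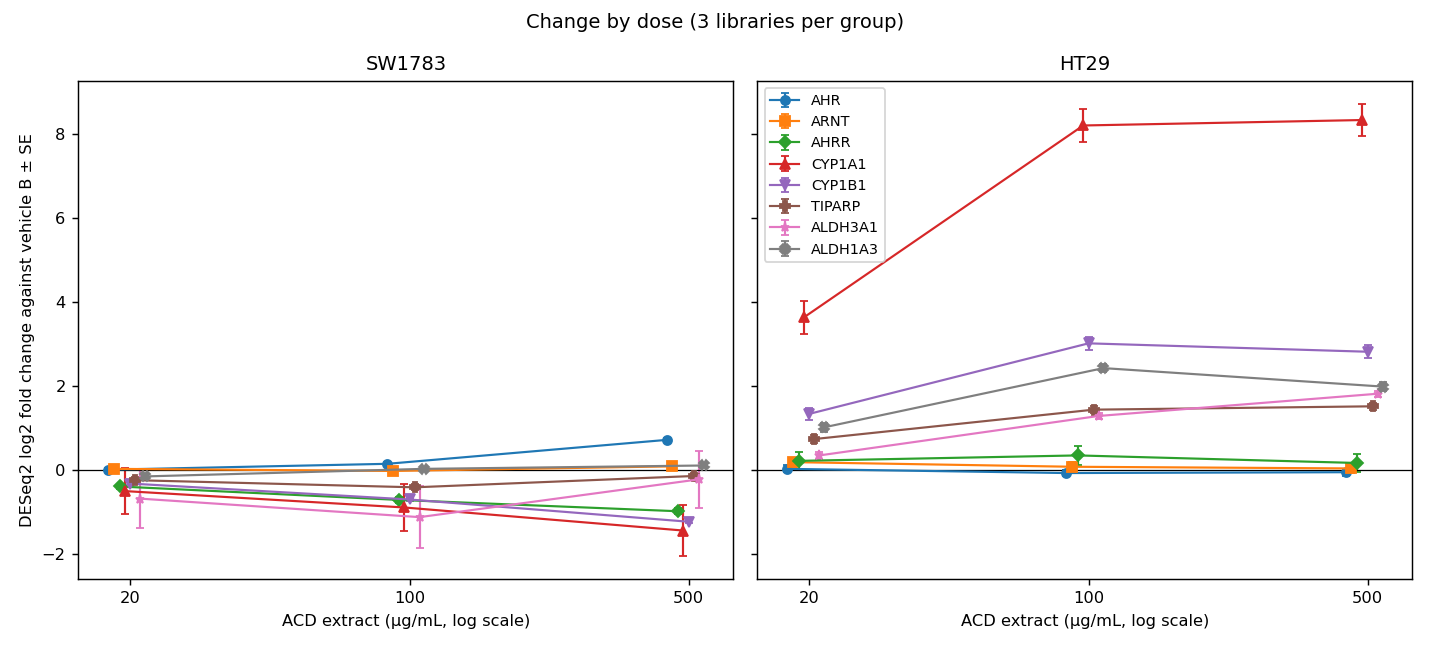
DESeq2 log2 fold change against vehicle B with its SE (error bars) at 20, 100 and 500 µg/mL ACD on a log axis, for 8 genes in SW1783 (left) and HT29 (right), from 3 libraries per group. In HT29 CYP1A1 goes from 3.64 to 8.21 and 8.34, while in SW1783 CYP1B1 and AHRR go down with dose to -1.23 and -0.98.

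Between neighbouring doses of SW1783 no gene passed the test, beside 9.86% of all genes tested from medium to high and 1.88% from low to medium. In both steps edgeR, with the fold threshold kept, called 0, and 5 had an unadjusted p under 0.05 in DESeq2. Without the fold threshold, 5 had an adjusted p under 0.05 in the first step and 4 in the second. The largest such value in the first step was that of AHR, with 0.57 ± 0.04 (adjusted p = 1e-43), which passed at 0.60 without replicate 3 of the medium dose. CYP1B1 had -0.53 ± 0.04 (adjusted p = 1.54e-32) in the first step and -0.38 ± 0.04 (adjusted p = 3.68e-19) in the second.

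The study set the cell lines against each other, and the difference in response was tested as an interaction over the 24 libraries of batch B, given as SW1783 minus HT29 on the log2 scale. At the high dose 7 of the 9 genes differed, beside 14.6% of all genes tested, at the medium dose 6, beside 3.34%, and at the low dose 5, beside 0.267%. CYP1A1 differed most, by -9.82 ± 0.61 at the high dose (adjusted p = 1.24e-55), -9.12 ± 0.58 at the medium dose (adjusted p = 4.7e-53) and -4.16 ± 0.57 at the low dose (adjusted p = 3.24e-10). CYP1B1, which rose in HT29 and fell in SW1783, differed by -4.09 ± 0.16 at the high dose (adjusted p = 2.35e-138). At the same dose ALDH3A1 differed by -2.14 ± 0.42, ALDH1A3 by -1.91 ± 0.09, TIPARP by -1.70 ± 0.10, AHRR by -1.21 ± 0.16 and AHR by 0.72 ± 0.09.

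The remaining genes gave no difference past the test. For ARNT the interval of the difference was -0.23 to 0.23 at the high dose (adjusted p = 0.992). AHR differed only at the high dose, and its interval at the low dose was -0.22 to 0.12. ALDH3A1 differed at the high and medium doses but not at the low dose (-1.08 ± 0.46, adjusted p = 0.363). The AHRR difference at the low dose, -0.62 ± 0.15 (adjusted p = 0.0118), missed the threshold with edgeR (adjusted p = 0.284) and without replicate 1 of the HT29 vehicle (-0.47, adjusted p = 0.13), replicate 1 or 3 of the SW1783 vehicle (adjusted p = 0.0617 and 0.0534) or replicate 2 of the HT29 low dose (adjusted p = 0.0602).

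**Figure D4:**
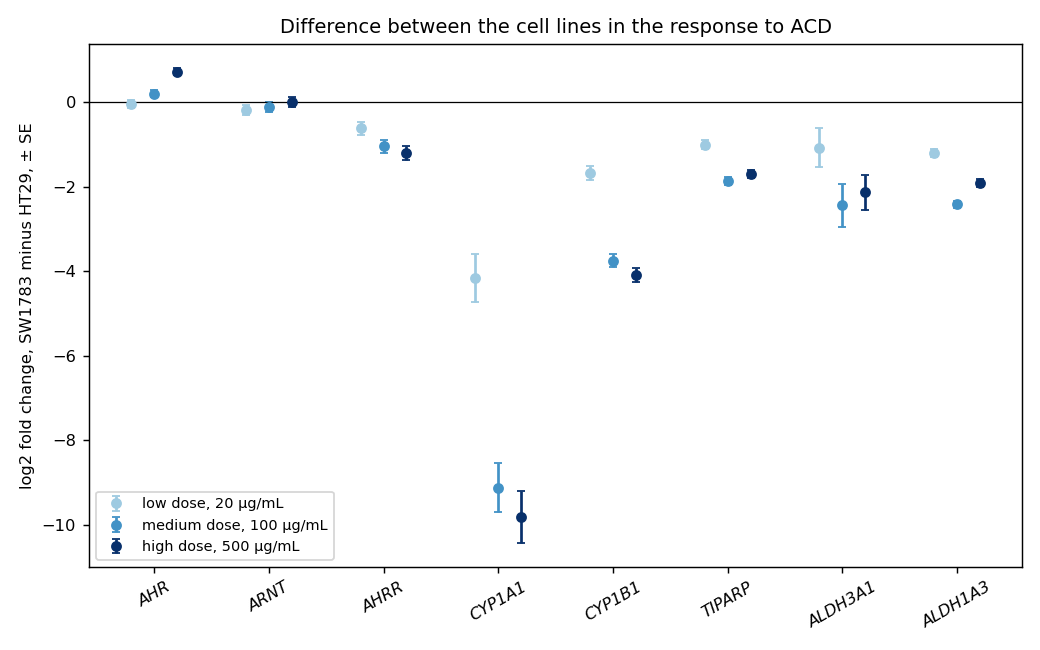
Difference between the cell lines in the log2 fold change against vehicle B (SW1783 minus HT29) with its SE for 8 genes at 3 doses of ACD (light to dark blue, low to high), from 24 libraries. CYP1A1 lies at -4.16, -9.12 and -9.82, ARNT stays near 0 at every dose, and AHR lies at 0.72 at the high dose.

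Wortmannin was the positive control of the study and bears on whether any treatment moved these genes. None of the 9 passed the test in SW1783, beside 2.71% of all genes, and none in HT29, beside 2.74% of all genes. In SW1783 5 genes had an adjusted p under 0.05 below the fold threshold, 6 had an unadjusted p under 0.05, and edgeR called 1, ALDH3A1 (1.04, adjusted p = 0.0119), on at most 21 counts per library. In HT29 these numbers were 4 and 4, and edgeR called 0.

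In SW1783 the largest of these was AHRR among genes with an adjusted p. AHRR measured 70.3, 71.0 and 68.8 CPM against 45.0, 48.3 and 45.6 CPM in vehicle A of SW1783, without overlap, a log2 fold change of 0.58 ± 0.05 (adjusted p = 5.28e-25) just under the threshold. It passed at 0.60 without replicate 2 of the vehicle and at 0.59 without replicate 3 of wortmannin. In HT29 AHRR had 0.54 ± 0.19 (adjusted p = 0.0265) and ALDH3A1 had 0.56 ± 0.12 (adjusted p = 7.13e-05), and ALDH3A1 passed at 0.68 without replicate 1 of the vehicle and at 0.62 without replicate 2 of wortmannin. CYP1A1 lay between 0.482 and 1.017 CPM in the wortmannin libraries of HT29 against 0.445 to 0.678 CPM in vehicle A. None of the 9 differed between the lines in the response to wortmannin, beside 3.42% of all genes. In DESeq2 1 had an unadjusted p under 0.05, and edgeR, with the fold threshold kept, called 0.

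The receptor works within a larger system, and 4 further lists of genes describe it. Of 13 genes of the receptor complex and its partners, which are chaperones, coactivators and relatives of ARNT, none passed at any dose in HT29. There 3.1%, 0.793% and 0.288% of all genes passed from high to low dose, so that 0 of so few genes says little about this list. In SW1783 only the coactivator NCOA3 passed, at the high dose, where 17.7% of all genes did. At the high dose the median log2 value of the list was -0.01 over 12 genes in HT29 and -0.09 over 13 in SW1783. In HT29 replicate 2 of this dose was low in some of these genes and high in others. EP300 had 137.7, 49.6 and 137.2 CPM, and PTGES3 had 481.2, 717.1 and 497.8 CPM. Without that replicate the log2 fold change was 0.23 ± 0.12 for EP300 and -0.06 ± 0.05 for PTGES3. ARNT2, the relative of ARNT in brain, had a mean of 10.71 CPM in vehicle B of SW1783, and no count in vehicle B of HT29.

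Of 16 genes of the wider AHR battery, which are phase II enzymes, transporters and signalling genes linked to the receptor, 4 rose and none fell at the high dose in HT29, and 4 rose and 1 fell in SW1783. At the medium dose 2 rose in HT29, while 1 rose and 1 fell in SW1783, and at the low dose none passed in either line. The shares over all genes were 3.1% in HT29 and 17.7% in SW1783 at the high dose, and 0.793% and 3.81% at the medium dose. The median over the genes with an adjusted p was 0.26 in HT29 and -0.02 in SW1783 at the high dose. UGT1A6, a glucuronosyltransferase that shares exons with the other UGT1A genes, so that its counts are uncertain, measured 43.8, 45.2 and 43.7 CPM in vehicle B of HT29, 73.9, 66.4 and 70.1 CPM at the medium dose and 75.1, 93.4 and 64.2 CPM at the high dose. It rose in HT29 by 0.66 ± 0.13 at the medium dose (adjusted p = 4.08e-05) and by 0.81 ± 0.13 at the high dose (adjusted p = 1.83e-08). Without replicate 2 of the high dose, its highest library, the value at that dose was 0.65 ± 0.09. EREG, a ligand of the EGF receptor, rose by 0.88 ± 0.10 and 1.11 ± 0.10 at these doses in HT29 (adjusted p = 5.66e-15 and 1.81e-24), and by 0.99 ± 0.24 at the high dose in SW1783 (adjusted p = 0.000138).

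SLC7A5, an amino acid transporter, measured 169.2, 161.6 and 166.0 CPM in vehicle B of SW1783, 433.2, 466.3 and 467.8 CPM at the medium dose and 524.5, 504.5 and 532.7 CPM at the high dose, by 1.48 ± 0.04 (adjusted p = 1.2e-292) and 1.68 ± 0.04 on the log2 scale. CYP2S1, a P450 of epithelia, fell in SW1783 by 0.64 and 0.77 (adjusted p = 0.00101 and 1.85e-05). NQO1, a quinone reductase that NRF2 also drives, rose at the high dose in both lines, by 0.62 ± 0.03 in SW1783 (adjusted p = 6.79e-74) and by 0.89 ± 0.15 in HT29 (adjusted p = 4.68e-07). In HT29 its high dose libraries were 778.4, 1227.0 and 800.0 CPM, and without replicate 2 the value was 0.64 ± 0.06. SLC7A5 in HT29 had 0.90 ± 0.18 at the high dose and 1.13 ± 0.06 without that replicate.

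Of 8 genes of the related xenobiotic receptors PXR and CAR and their P450s, none passed in HT29 at any dose. At most 4 of them had an adjusted p there, beside 3.1%, 0.793% and 0.288% of all genes that passed from high to low dose. In SW1783 CYP3A5 and CYP3A7 fell at the high dose, beside 17.7% of all genes. Both were low in this line. CYP3A7 had 12, 9 and 7 counts in vehicle B and 2, 2 and 1 counts at the high dose. CYP3A5 had a mean of 1.771 CPM in vehicle B and of 2.318, 1.992 and 1.039 CPM with increasing dose. Of 11 aldehyde dehydrogenases and retinoid genes, ALDH3A2 was the only one that rose in HT29 (0.79 ± 0.07 at the high dose, adjusted p = 6.74e-31), and 3 fell in SW1783 at the high dose, beside 3.1% and 17.7% of all genes at this dose. CYP26B1, which degrades retinoic acid, measured 45.1, 41.7 and 43.1 CPM in vehicle B of SW1783, 27.0, 26.7 and 27.1 CPM at the medium dose and 8.903, 8.517 and 7.684 CPM at the high dose, a fall of 2.35 on the log2 scale at the high dose (SE 0.09, adjusted p = 1.07e-154). CRABP2, which carries retinoic acid, fell in SW1783 by 0.62 at the medium dose (adjusted p = 0.0111) and by 1.47 at the high dose (adjusted p = 1.6e-10). The third was RARB, a retinoic acid receptor.

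**Figure D5:**
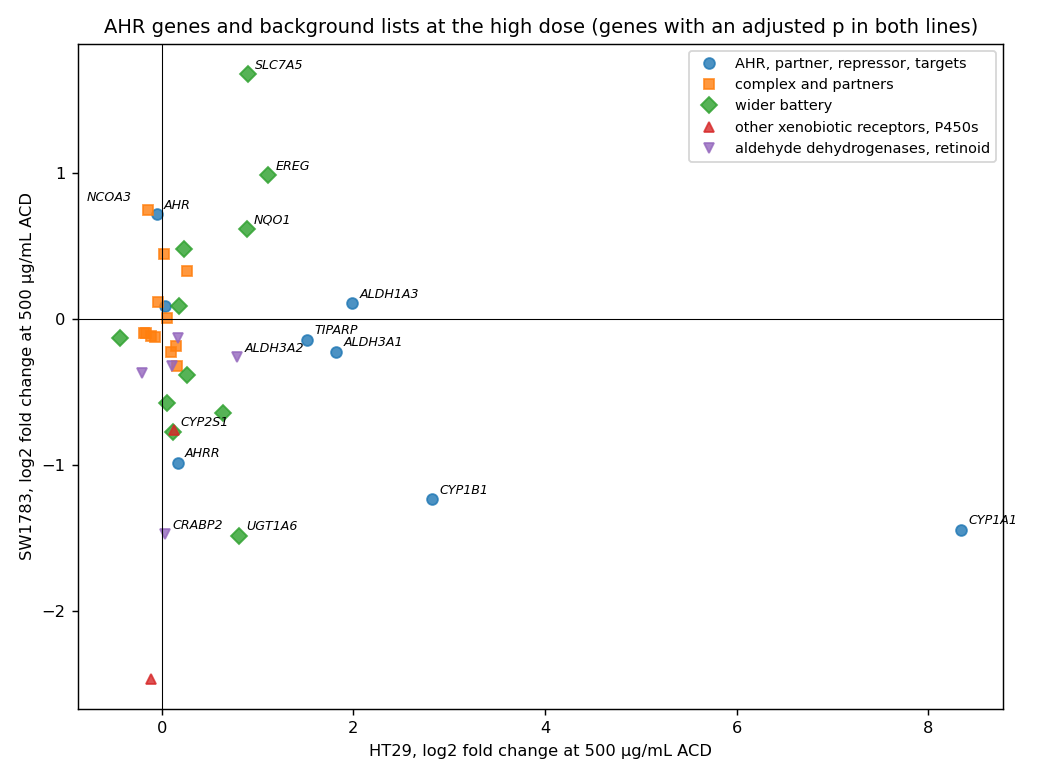
log2 fold change at 500 µg/mL ACD in HT29 (horizontal) against SW1783 (vertical) for the AHR genes and the 4 background lists, for genes with an adjusted p in both lines, with some names. CYP1A1, at 8.34 in HT29 and -1.44 in SW1783, and CYP1B1, at 2.82 and -1.23, lie at the lower right, while SLC7A5, EREG and NQO1 lie above 0 in both lines.

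The genes most like CYP1A1 were ranked by Pearson's r of log2(CPM + 1) over the 18 HT29 libraries, among 13208 other genes with a mean of 1 CPM or more. The points share their libraries and doses, so that r is only a description. The 5 highest were TXNRD1 with 0.987, CYP1B1 with 0.985, EDC3 with 0.983, ADGRF1 with 0.980 and TIPARP with 0.979. ALDH1A3 stood at rank 7 and ALDH3A1 at rank 30, while AHR stood at rank 11266 with r = -0.454. TXNRD1, the thioredoxin reductase of the cytosol, had a mean of 340 CPM in vehicle B and of 395, 535 and 561 CPM with increasing dose. ADGRF1, an adhesion receptor, had 30.8, 45.2, 83.0 and 74.3 CPM in the same groups.

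In SW1783 the same ranking for CYP1B1, among 13898 other genes, gave COLEC12 with 0.994, METTL7A with 0.991, PTGFRN with 0.991, MSI2 with 0.990 and SMIM3 with 0.989. COLEC12, a scavenger receptor, went from a mean of 19.3 CPM in vehicle B to 14.4, 8.54 and 3.76 CPM from low to high dose. AHRR stood at rank 519 with r = 0.940, and TIPARP at rank 3591 with r = 0.680.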

How the data were processed

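RNA was sequenced as 100 bp paired-end reads from directional mRNA libraries. Per the labels, the authors trimmed adapters with Trim Galore 0.6.5, aligned reads with STAR 2.7.3a and quantified genes with RSEM 1.3.3 on GRCh38. The study's methods name other versions of Trim Galore and STAR, and name the genome as GRCh38 together with an older build. Strand setting and treatment of multi-mapping reads are not given in the sources used here. The deposited values were RSEM expected counts per gene, not normalized, of which 8.84% were not whole, and they were rounded here.

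Groups came from the labels. Members and lists were chosen with earlier results of these data known. All 9 members were named, and list genes were named when they passed the test at 2 or more ACD doses in a line (at most 6 per list), plus ARNT2 and NQO1. The rule named 1 more gene outright, which is not reported here. NCOA3, CYP3A5, CYP3A7, ALDH3A2 and RARB were named after their values were seen. The test was the two-sided Wald test in DESeq2 1.42.0 (R 4.3.3), with Benjamini-Hochberg adjustment over all genes of a comparison, in fits of the 12 libraries of a line in batch B, the 6 of batch A, and 24 or 12 libraries across lines. A gene passed at an adjusted p under 0.05 and a change of more than 1.5-fold. CPM were scaled with TMM in edgeR 4.0.16. Lengths and positions are from GENCODE v44 (exon union). Scripts were tested on simulated data. Alternatives were edgeR's quasi-likelihood test, TMM size factors, a filter at 10 counts in at least 3 libraries, leaving out mitochondrial and 7SL genes, a replicate block, smaller or larger fits, no fold threshold and leaving out each replicate.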

Additional observations from a re-analysis of the deposited data

Results flagged for a closer look

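The response to ACD differed between SW1783 and HT29 by a test of the difference itself (the interaction term of DESeq2, with an adjusted p under 0.05 and more than 1.5-fold). Values are SW1783 minus HT29 on the log2 scale. At the high dose they were 0.72 for AHR, -1.21 for AHRR, -9.82 for CYP1A1, -4.09 for CYP1B1, -1.70 for TIPARP, -2.14 for ALDH3A1 and -1.91 for ALDH1A3. At the medium dose they were -1.05 for AHRR, -9.12 for CYP1A1, -3.75 for CYP1B1, -1.87 for TIPARP, -2.44 for ALDH3A1 and -2.42 for ALDH1A3. At the low dose they were -0.62 for AHRR, -4.16 for CYP1A1, -1.68 for CYP1B1, -1.01 for TIPARP and -1.20 for ALDH1A3. Since the lines were grown in different media, line and medium cannot be told apart.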

How the results depend on the processing

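Each result was recomputed under the alternatives. Of 295 values of genes that had passed, under the named alternatives, 288 stayed past the threshold, 7 did not and 0 changed sign. With 1 replicate left out these numbers were 426, 12 and 0 of 438. The values that missed the threshold belonged to CYP1A1 in SW1783 at the high dose, the AHRR difference between lines at the low dose, and CYP1A1 and TIPARP between the vehicles of batch B. Without the fold threshold, 4 genes counted in SW1783 at the medium dose, 4 at the low dose, 5 from medium to high and 4 from low to medium, 2 in HT29 from medium to high, and 5 in SW1783 and 4 in HT29 under wortmannin, while 5 in place of 4 counted in SW1783 at the high dose and in HT29 at the low dose, and 6 in place of 5 between the vehicles of batch A. With edgeR and the fold threshold, 1 gene counted in SW1783 under wortmannin. With a replicate left out, the count ranged from 0 to 1 from medium to high in SW1783 and under wortmannin in each line. TIPARP between the vehicles of batch A passed at 0.59 without replicate 1 of the HT29 vehicle.

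No pairing of treated and vehicle samples by replicate number was seen, but with 3 libraries per group this check could miss one. No treated group had all 3 same-numbered correlations with its vehicle above 0.1, and they lay between -0.55 and 0.42. Vehicle A and vehicle B libraries of the same number did deviate together, with 0.62 to 0.85 in HT29 and 0.26 to 0.33 in SW1783, but these groups were not tested against each other. With the replicate number as a block, the number of genes that passed stayed as reported in HT29 at the high dose, at 5, and in the comparisons not named here. It moved to 3 in SW1783 at the high dose, 4 in the difference between lines at the low dose and 5 between the vehicles of batch B. The cause of these moves was not tested. CYP1A1 at the high dose in SW1783 then had -1.47 (adjusted p = 0.0718), the AHRR difference -0.63 (adjusted p = 0.0523), and between the vehicles of batch B CYP1A1 had -1.03 (adjusted p = 0.0933) and TIPARP 0.58. Depth limited CYP1A2 in all libraries, and CYP1A1 and ALDH3A1 in SW1783.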

Other observations

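EDC3, which encodes a factor of mRNA decapping, ranked among the 5 genes most like CYP1A1 in HT29 and is also its neighbour on chromosome 15, so the protein-coding genes within 100000 bases of CYP1A1 were looked at, a choice made after seeing the data. EDC3 (chromosome 15, 74630558 to 74696292, minus strand) lies 23250 bases past the end of CYP1A1 on the same strand. In HT29 it had a mean of 53.0 CPM in vehicle B (lowest 51.5, highest 55.1), 55.1 CPM at the low dose, 69.1 CPM at the medium dose (lowest 67.7) and 68.7 CPM at the high dose (lowest 67.4). The medium and high dose libraries lay above all vehicle libraries, with log2 fold changes of 0.38 ± 0.06 at both doses (DESeq2 adjusted p = 1.19e-08 and 3.98e-09), below the fold threshold. In SW1783, where CYP1A1 stayed near 0, EDC3 had 0.05 ± 0.06 at the high dose (adjusted p = 0.558), whereas CLK3, on the opposite strand, had 0.42 ± 0.06 there (adjusted p = 2.69e-10), also below the fold threshold. The mean of EDC3 in SW1783 was 38.1 CPM in vehicle B (lowest 36.5) and 36.8, 34.2 and 38.9 CPM with increasing dose. Its medium dose libraries (highest 35.0) lay below those of vehicle B.

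Of the other neighbours measured well enough for a test, at the medium dose in HT29 CLK3 (plus strand, 74128 bases past the end of CYP1A1) had 0.20 ± 0.07 (adjusted p = 0.111) and CSK (plus strand, 56544 bases before its start) had 0.09 ± 0.07 (adjusted p = 0.793). At the high dose CLK3 had 0.16 ± 0.07 (DESeq2 adjusted p = 0.119) and CSK had 0.14 ± 0.08 (adjusted p = 0.313). Without replicate 2 of the high dose CLK3 had 0.21 ± 0.07 (adjusted p = 0.00986) and CSK had 0.19 ± 0.07 (adjusted p = 0.0298), both below the fold threshold. DESeq2 gave no adjusted p for CYP1A2 and LMAN1L, the rest of the 5 neighbours, and LMAN1L stayed at 0.0968 CPM or below in all libraries.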
